A study of Sus scrofa with 9 samples.

Results

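The calcium handling genes of the cardiomyocyte were examined in porcine hearts procured after circulatory death, stored cold and reanimated on a bench-top circuit. A set of 10 symbols was chosen for what the encoded proteins are known to do: RYR2, ATP2A2, PLN, CASQ2, SLC8A1, JPH2, TRDN, HRC, S100A1 and CAMK2D. Of these, 5 had a row under their symbol among the 25149 genes of the expression table (13143 with a symbol and 12006 without one), namely RYR2 (ENSSSCG00000010142), CASQ2 (ENSSSCG00000006745), HRC (ENSSSCG00000003156), S100A1 (ENSSSCG00000031053) and CAMK2D (ENSSSCG00000009123). TRDN was reached only through its gene identifier (ENSSSCG00000027613), which the table lists without a symbol, and its values are given beside the 5 members but are not counted with them. ATP2A2, PLN, SLC8A1 and JPH2 were not analysed here, so the members cover release and storage of calcium and its regulation by kinase. They do not cover the main cardiac pump and exchanger by which the cell clears calcium. Other pumps and exchangers appear only among the wider calcium genes further below.

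RNA was sequenced from the myocardium of 9 female Yorkshire pigs, 3 hearts in each of 3 groups, aged 4 to 6 months and weighing 40 to 50 kg. All hearts went through 15 min of warm ischemia without a heartbeat, cold storage, and then 2 h of normothermic machine perfusion (NMP), in which blood at body temperature is pumped through the coronary arteries while the heart is paced at 100 beats per min. NRP+SCS 2h hearts (pigs 24, 25 and 29) were reperfused in the body for 60 min by normothermic regional perfusion (NRP) and then kept for 2 h in static cold storage (SCS) at 4 °C. NRP+HOPE 24h hearts (pigs 27, 28 and 30) received the same 60 min of NRP and then 24 h of hypothermic oxygenated perfusion (HOPE) at 8 °C, in which cold oxygenated solution is pumped through the stopped heart. No NRP+HOPE 2h hearts (pigs 31, 33 and 34) were procured directly, with 0 min of NRP, and kept for 2 h under HOPE at 8 °C. Storage method and duration therefore differ together between the NRP groups, and the presence of NRP and the storage method differ together between the groups stored for 2 h, and between the HOPE groups NRP and storage time do, so these factors cannot be told apart here. No heart that was left unperfused or never arrested was analysed here, so no value below is relative to healthy myocardium.

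In a working cardiomyocyte, each action potential lets a little calcium in from outside, which opens ryanodine receptors on the sarcoplasmic reticulum and releases a much larger store that drives contraction. Calsequestrin and other binding proteins hold that store inside the reticulum, triadin ties calsequestrin to the release channel, and pumps and exchangers clear calcium for relaxation. Calcium/calmodulin-dependent kinase II tunes both release and reuptake, and ischemia and reperfusion are known to overload the cell with calcium. The transcripts for this machinery were compared to ask whether they differed after 24 h of HOPE or when NRP was left out. The storage comparison sets NRP+HOPE 24h beside NRP+SCS 2h as reference, the NRP comparison sets No NRP+HOPE 2h beside the same NRP+SCS 2h hearts, and the HOPE comparison sets NRP+HOPE 24h beside No NRP+HOPE 2h.

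The biopsies were whole tissue from the apex, taken at the end of NMP, although the labels name cardiomyocytes as the cell type. Cardiomyocyte markers dominated, with 11 of the 11 matched markers detected and their sum ranging from 35588 to 65764 TPM (a share of all transcripts per 1000000, corrected for gene length) over the 9 hearts. Markers of other cells were present in every group: the sum of 9 endothelial markers ranged from 393 to 892 TPM, of 6 fibroblast markers from 692 to 1164 TPM, of 7 mural cell markers from 231 to 506 TPM and of 9 leukocyte markers from 24.3 to 73.7 TPM, with MYH11 and CSF3R listed at 0 in all 9 hearts. The sum of 4 erythroid markers ranged from 72.3 to 430 TPM and that of 2 adipocyte markers from 0.07 to 1.97 TPM, and the sum of 3 atrial markers reached 456 TPM in an NRP+SCS 2h heart against a lowest value of 31.2 TPM in the same group. In such bulk tissue, fewer cardiomyocytes and less RNA per cardiomyocyte cannot be told apart. The 13 protein genes of the mitochondrial genome took from 38.2% of all TPM in pig 30 to 55.3% in pig 27, and since TPM sums to a fixed total in each heart, every nuclear gene is set against that share.

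S100A1 was the most abundant member, with a mean of 262 TPM over the 9 hearts. It encodes a small calcium-binding protein that acts on both the ryanodine receptor and the reuptake pump. CAMK2D, the main cardiac form of calcium/calmodulin-dependent kinase II, followed with 151 TPM, and HRC, a histidine-rich calcium-binding protein of the reticulum, with 103 TPM. RYR2, the cardiac release channel itself, stood at 49.8 TPM and CASQ2, the cardiac calsequestrin, at 22.8 TPM. All CASQ2 values rest on the identifier given above, whereas a reference annotation lists CASQ2 under a different one. TPM is corrected for gene length, but the lengths used are not given, so the order of these means rests on lengths that could not be checked. That order was the same heart by heart with a single exception. CAMK2D lay above HRC, HRC above RYR2 and RYR2 above CASQ2 in 9 of 9 hearts, whereas S100A1 lay above CAMK2D in 8 of 9, the exception being pig 29 with 93.4 TPM of S100A1 and 163.8 TPM of CAMK2D. TRDN, with 236 TPM, was close to S100A1 in its mean.

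The members also differed in how widely hearts varied. Across the 9 hearts the coefficient of variation was 22.5% for CAMK2D, 25.6% for HRC and 33.3% for RYR2. It reached 44.2% for S100A1 and 53.6% for CASQ2. CASQ2 spanned 6.63-fold between its highest and lowest heart and S100A1 4.64-fold, while CAMK2D spanned 1.91-fold and TRDN, with a coefficient of variation of 12.4%, only 1.40-fold. These spans depended on the scale. After each heart was rescaled as described below, CASQ2 ranged from 9.66 to 37.2 units and S100A1 from 87.0 to 537. CAMK2D then ranged from 112 to 179 and TRDN from 154 to 326. In fold, S100A1 rather than CASQ2 then varied most, and CAMK2D rather than TRDN least.

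RYR2 was listed at 79.1, 50.4 and 55.3 TPM in the NRP+SCS 2h hearts of pigs 24, 25 and 29. The NRP+HOPE 24h hearts of pigs 27, 28 and 30 held 37.1, 34.1 and 58.4 TPM, and the No NRP+HOPE 2h hearts of pigs 31, 33 and 34 held 29.8, 37.6 and 66.8 TPM. Pigs 30 and 34 reached the NRP+SCS 2h range while the other 4 HOPE hearts lay below it, so all groups overlapped. Group means were 61.6 ± 15.3 TPM for NRP+SCS 2h, 43.2 ± 13.2 for NRP+HOPE 24h and 44.7 ± 19.5 for No NRP+HOPE 2h (SD, n = 3 each). The log2 fold change against NRP+SCS 2h was -0.52 ± 0.34 (SE; adjusted p = 0.993, limma) for NRP+HOPE 24h and -0.51 ± 0.34 (adjusted p = 0.825, limma) for No NRP+HOPE 2h. Neither value passed the test, and with 95% confidence intervals of -1.26 to 0.22 and -1.25 to 0.23 the data include 0 as well as a log2 fold change beyond -1. For RYR2, leaving out single hearts gave -0.75 (without pig 30) to -0.33 (without pig 24) in the storage comparison and -0.83 (without pig 34) to -0.26 (without pig 31) in the NRP comparison.

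CASQ2 was listed at 20.5, 30.0 and 24.8 TPM in the NRP+SCS 2h hearts of pigs 24, 25 and 29. In the NRP+HOPE 24h hearts it stood at 13.7, 25.3 and 50.03 TPM in pigs 27, 28 and 30, and in the No NRP+HOPE 2h hearts at 7.54, 16.2 and 17.5 TPM in pigs 31, 33 and 34. All 3 hearts procured without NRP therefore lay below all 3 NRP+SCS 2h hearts, while pig 27 of the NRP+HOPE 24h group fell inside the range of the hearts without NRP. The group means were 25.1 ± 4.77, 29.7 ± 18.6 and 13.7 ± 5.39 TPM (SD, n = 3) for NRP+SCS 2h, NRP+HOPE 24h and No NRP+HOPE 2h. Without NRP, CASQ2 differed from NRP+SCS 2h by -0.89 ± 0.43 on the log2 scale (95% confidence interval -1.82 to 0.04; unadjusted p = 0.0592, adjusted p = 0.708, limma). NRP+HOPE 24h exceeded No NRP+HOPE 2h by 0.95 ± 0.43 (95% confidence interval 0.03 to 1.88; unadjusted p = 0.0447, adjusted p = 0.826, limma) and differed from NRP+SCS 2h by 0.07 ± 0.43 (adjusted p = 0.995, limma). None of these passed the adjusted threshold. Single hearts moved the size both ways. Without pig 31, the heart lowest in CASQ2, the value of the NRP comparison was -0.54, and without pig 34 it was -1.09. The HOPE comparison was 0.60 without pig 31, 0.49 without pig 30, the highest heart, and 1.39 without pig 27.

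**Figure D1:**
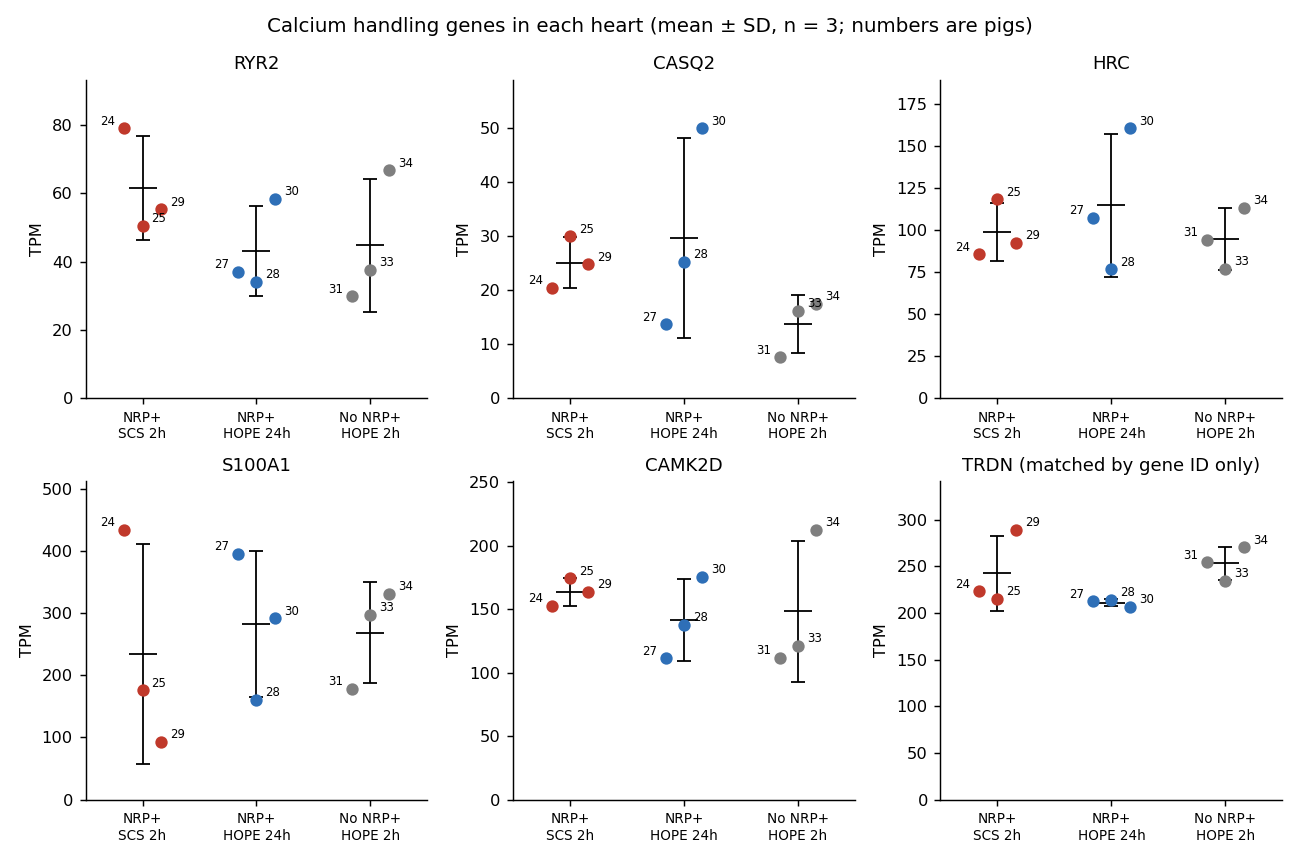
TPM of the 5 members and of TRDN in each heart, 1 panel per gene with its own axis from 0, points for hearts (numbered by pig) and bars for mean ± SD of the 3 hearts of a group. CASQ2 in the hearts without NRP (7.54 to 17.5 TPM) sits below NRP+SCS 2h (20.5 to 30.0 TPM), while the groups overlap for RYR2, HRC, S100A1 and CAMK2D.

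Pig 31 held the lowest CASQ2 and also 55.0% mitochondrially encoded TPM, and pig 30 held the highest CASQ2 and the lowest mitochondrial share, so CASQ2 was also examined after each heart was rescaled by the median of its gene ratios, which lessens the effect of such shares. On that scale the hearts without NRP held 9.66 to 15.0 units of CASQ2, the NRP+SCS 2h hearts 18.9 to 28.2 and the NRP+HOPE 24h hearts 18.6 to 37.2. All 3 hearts without NRP then lay below all 6 hearts with NRP. The differences were -0.80 against NRP+SCS 2h (unadjusted p = 0.0156, adjusted p = 0.311, limma) and 0.999 for NRP+HOPE 24h over No NRP+HOPE 2h (unadjusted p = 0.00442, adjusted p = 0.223, limma). Adjusted p over the 16 alternative settings ranged from 0.247 to 0.999 in the former comparison and from 0.223 to 0.9995 in the latter, so CASQ2 passed in none. Separation without overlap was common on this scale, at 18.0% of the genes tested in the NRP comparison and 16.3% in the HOPE comparison. The mean log2 level of the 11 cardiomyocyte markers, as deposited, differed by -0.11 in the NRP comparison and by 0.20 in the HOPE comparison, and its part in the CASQ2 values was not tested. The sums of 2 other marker lists separated the groups of the NRP comparison without overlap: erythroid markers ranged from 226 to 379 TPM in the hearts without NRP and from 72.3 to 136 TPM in NRP+SCS 2h, and fibroblast markers from 1037 to 1164 TPM and from 692 to 1015 TPM. In the HOPE comparison the sum of mural cell markers did so, at 231 to 427 TPM in NRP+HOPE 24h and 439 to 506 TPM without NRP. The part of these lists in the CASQ2 values was not tested either.

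Calsequestrin was then set against the channel it serves, as the ratio of CASQ2 to RYR2 TPM within each heart, which does not depend on how a heart was scaled. The ratio was 0.259, 0.595 and 0.448 in NRP+SCS 2h (pigs 24, 25 and 29). It was 0.369, 0.741 and 0.857 in NRP+HOPE 24h (pigs 27, 28 and 30) and 0.253, 0.430 and 0.261 in No NRP+HOPE 2h (pigs 31, 33 and 34). Every group overlapped the others, and only pigs 28 and 30 exceeded the NRP+SCS 2h range. On the log2 scale the means were -1.29 ± 0.61, -0.70 ± 0.65 and -1.71 ± 0.43 (SD, n = 3). NRP+HOPE 24h exceeded No NRP+HOPE 2h by 1.01 (exact permutation p = 0.2, two-sided; 0.3 after adjustment over 3 comparisons), the difference of NRP+HOPE 24h from NRP+SCS 2h was 0.59 and that of No NRP+HOPE 2h from NRP+SCS 2h was -0.43 (exact permutation p = 0.3 each). With 3 hearts against 3 such a test cannot go below 0.1, and over all 3 groups at once the exact permutation p was 0.168. Leaving out single hearts moved the difference in the log2 ratio of CASQ2 to RYR2 between 0.26 (without pig 24) and 0.96 (without pig 27) in the storage comparison, between -0.76 (without pig 24) and -0.16 (without pig 25) in the NRP comparison and between 0.78 (without pig 30) and 1.38 (without pig 27) in the HOPE comparison.

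**Figure D2:**
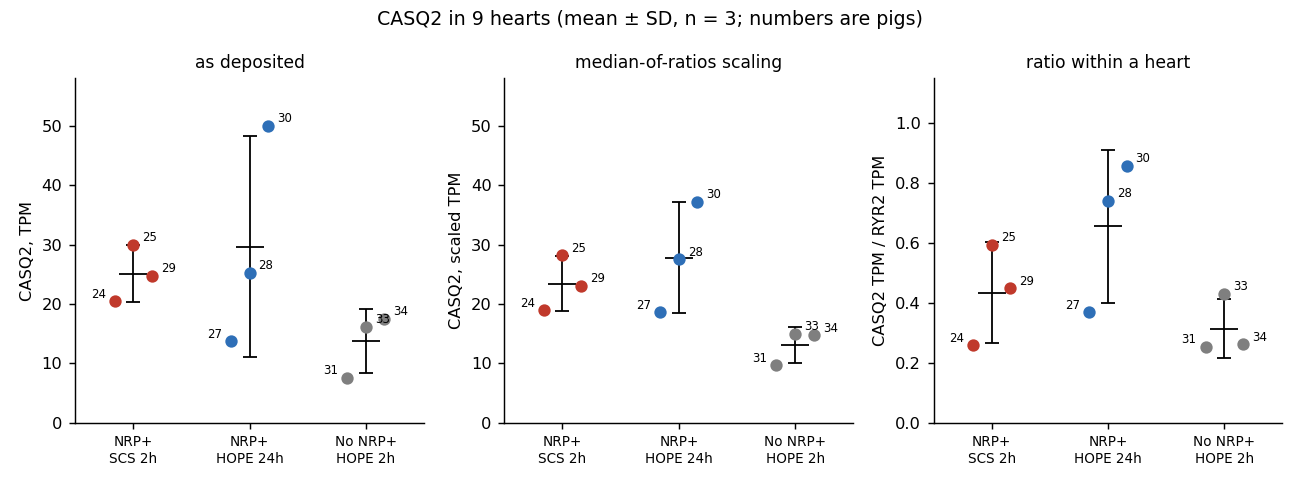
CASQ2 in each heart as TPM (left), as TPM rescaled by the median of gene ratios (middle) and as the ratio of CASQ2 to RYR2 TPM (right), with points for hearts numbered by pig and bars for mean ± SD. After rescaling, the hearts without NRP (9.66 to 15.0) lie below both other groups, whereas the ratio overlaps among all 3 groups.

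HRC was listed at 85.5, 118.2 and 92.5 TPM in NRP+SCS 2h (pigs 24, 25 and 29), at 107.1, 76.6 and 160.5 TPM in NRP+HOPE 24h (pigs 27, 28 and 30) and at 94.0, 76.7 and 113.2 TPM in No NRP+HOPE 2h (pigs 31, 33 and 34). As deposited, pig 30 was again the highest heart, and the groups overlapped. The log2 fold change against NRP+SCS 2h was 0.16 ± 0.30 (95% confidence interval -0.49 to 0.82; adjusted p = 0.993, limma) for NRP+HOPE 24h and -0.06 ± 0.30 (-0.72 to 0.59; adjusted p = 0.986, limma) for No NRP+HOPE 2h.

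S100A1 was listed at 433.4, 175.9 and 93.4 TPM in the NRP+SCS 2h hearts of pigs 24, 25 and 29, so as deposited the highest and the lowest of all 9 hearts belonged to the same group. NRP+HOPE 24h hearts held 395.6, 160.8 and 291.4 TPM (pigs 27, 28 and 30) and No NRP+HOPE 2h hearts 177.8, 297.1 and 331.1 TPM (pigs 31, 33 and 34). After rescaling by the median of gene ratios, S100A1 was highest at 537 units in pig 27 of NRP+HOPE 24h, against at most 401 in NRP+SCS 2h. Its log2 fold change against NRP+SCS 2h was 0.46 ± 0.48 (95% confidence interval -0.57 to 1.49; adjusted p = 0.993, limma) for NRP+HOPE 24h and 0.43 ± 0.48 (-0.60 to 1.46; adjusted p = 0.915, limma) for No NRP+HOPE 2h. These values turned on which NRP+SCS 2h heart was included: without pig 24 they were 1.04 and 1.01, and without pig 29 they were -0.06 and -0.09.

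CAMK2D was listed at 152.7, 174.4 and 163.8 TPM in NRP+SCS 2h (pigs 24, 25 and 29), at 111.2, 137.7 and 175.4 TPM in NRP+HOPE 24h (pigs 27, 28 and 30) and at 111.9, 121.1 and 212.3 TPM in No NRP+HOPE 2h (pigs 31, 33 and 34). The NRP+SCS 2h hearts were close together, with an SD of 10.8 TPM, and as deposited each HOPE group held hearts both below and above them. After rescaling by the median of gene ratios, CAMK2D ranged from 131 to 151 units in NRP+HOPE 24h and from 141 to 164 in NRP+SCS 2h. No heart of the former group then lay above the latter, while No NRP+HOPE 2h (112 to 179) still reached both sides. The log2 fold change against NRP+SCS 2h was -0.23 ± 0.29 (95% confidence interval -0.86 to 0.39; adjusted p = 0.993, limma) for NRP+HOPE 24h and -0.20 ± 0.29 (-0.82 to 0.43; adjusted p = 0.928, limma) for No NRP+HOPE 2h. With single hearts left out, CAMK2D ranged from -0.40 (without pig 30) to -0.07 (without pig 27) in the storage comparison and from -0.49 (without pig 34) to -0.03 (without pig 31) in the NRP comparison.

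TRDN was listed at 212.8, 214.0 and 206.5 TPM in NRP+HOPE 24h (pigs 27, 28 and 30), at 223.2, 215.3 and 289.0 TPM in NRP+SCS 2h (pigs 24, 25 and 29) and at 254.3, 234.8 and 270.4 TPM in No NRP+HOPE 2h (pigs 31, 33 and 34). The 3 hearts kept for 24 h lay below the other 6. The log2 fold change of NRP+HOPE 24h was -0.19 ± 0.23 against NRP+SCS 2h (adjusted p = 0.993, limma) and -0.26 ± 0.23 against No NRP+HOPE 2h (adjusted p = 0.956, limma), neither of which passed the test. Without pig 29, the highest heart, the former was -0.05. After rescaling by the median of gene ratios the NRP+HOPE 24h hearts ranged from 154 to 289 units and overlapped NRP+SCS 2h (203 to 269) and No NRP+HOPE 2h (218 to 326).

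In the HOPE comparison, the log2 fold changes of the members other than CASQ2 were -0.01 for RYR2 (95% confidence interval -0.75 to 0.73), 0.23 for HRC (-0.42 to 0.88), 0.03 for S100A1 (-1.003 to 1.059) and -0.03 for CAMK2D (-0.66 to 0.59). Each of these intervals includes 0, and that of S100A1 is the widest.

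Across the 5 members, then, 0 were called in any of the 3 comparisons, where a call needed a log2 fold change beyond 1 in size and an adjusted p under 0.05 (limma on log2(TPM + 1)). The background was low as well, at 0.0255%, 0.0509% and 0.0509% of 11782 genes in the storage, NRP and HOPE comparisons. Few calls were therefore to be had in this fit. The study, which used DESeq2 on counts, reported more differentially expressed genes in the storage and NRP comparisons. In the storage, NRP and HOPE comparisons this fit called 3, 6 and 6 genes, and 60, 94 and 14 with hearts weighted by their consistency (array weights). At an unadjusted p under 0.05, 0, 0 and 1 members passed in the same order, the last being CASQ2, against 4.97%, 7.22% and 6.01% of all genes tested. The groups did not overlap for 0, 1 (CASQ2) and 0 members, against 9.82%, 14.7% and 7.48% of all genes. In the test for any difference among the 3 groups, which called 0.102% of genes at an adjusted p under 0.05 and 6.26% at an unadjusted one, 0 members passed at either level, and the smallest p was that of CASQ2 (unadjusted p = 0.0805, adjusted p = 0.847, limma). With 5 members, a single gene cannot be set apart from such shares.

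As a set, the members had group means close to each other beside the spread within groups. Their median log2 fold change was 0.07 in the storage comparison, -0.20 in the NRP comparison and 0.03 in the HOPE comparison, where the median over all genes tested was -0.12, -0.07 and -0.03. Rescaling by the median of gene ratios moved the all-gene median by 0.12, 0.08 and 0.04. The mean log2 level of the 5 members was 6.44 ± 0.23 in NRP+SCS 2h, 6.43 ± 0.42 in NRP+HOPE 24h and 6.20 ± 0.43 in No NRP+HOPE 2h (SD, n = 3), with differences of -0.01, -0.25 and 0.23 in the storage, NRP and HOPE comparisons. After rescaling by the median of gene ratios, an alternative added once the data had been seen, these were 0.13, -0.15 and 0.28. With single hearts left out, the differences as deposited ranged from -0.25 (without pig 30) to 0.15 (without pig 28), from -0.47 (without pig 34) to -0.04 (without pig 31) and from -0.01 (without pig 30) to 0.46 (without pig 34). Minus the mean log2 level of the cardiomyocyte markers in the same heart, it was -4.14 ± 0.21, -4.24 ± 0.17 and -4.28 ± 0.14 in those groups. The first 2 comparisons share the NRP+SCS 2h hearts, so a high or low heart there enters both.

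**Figure D3:**
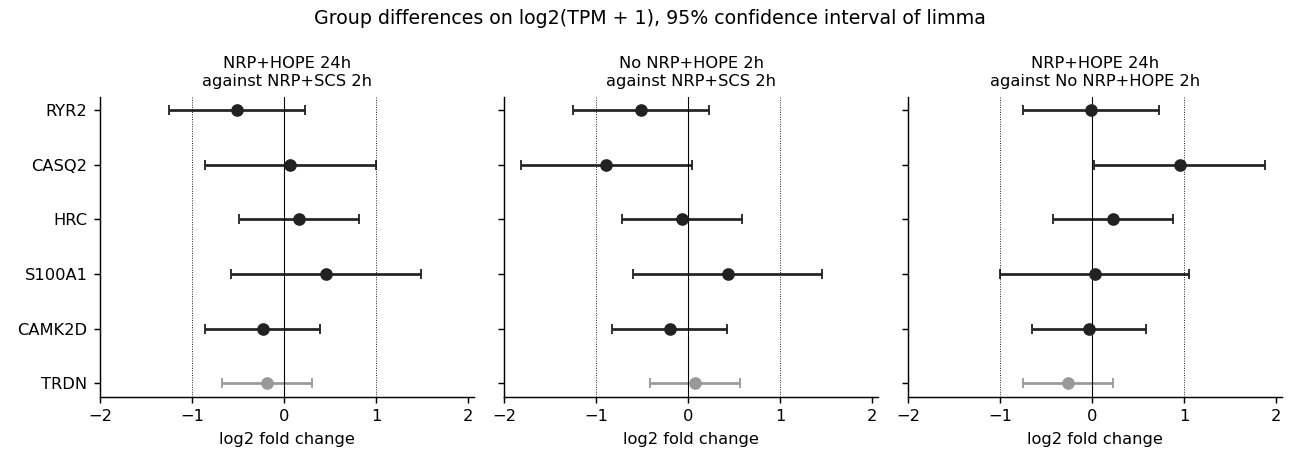
Log2 fold change of each member and of TRDN (grey) in the 3 comparisons, on log2(TPM + 1), with points for estimates and bars for limma's 95% confidence interval; dotted lines mark an absolute value of 1. The interval leaves out 0 for CASQ2 in the HOPE comparison (0.03 to 1.88), where the adjusted p was 0.826, and includes 0 in each of the other cases shown.

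Some hearts were extreme for more than 1 member. As deposited, pig 30, with the lowest mitochondrial share (38.2%), was highest of the 9 for CASQ2 and HRC, and pig 31, with 55.0%, was lowest for RYR2 and CASQ2. The factors by which hearts were rescaled, on the log2 scale, were -0.44 in pig 27, the lowest of the 9, and 0.43 in pig 30, the highest, so that rescaling raised the former and lowered the latter. Pig 24 was highest for RYR2 and S100A1 as deposited. After rescaling, HRC and S100A1 were highest in pig 27 and RYR2 was lowest in pig 33. CASQ2 was still highest in pig 30 and lowest in pig 31, and RYR2 still highest in pig 24. S100A1 was lowest in pig 29, of the same group as pig 24, and its profile over the 9 hearts was the one farthest from the members' mean (root mean square difference 0.60 on the log2 scale, against 0.50 for CASQ2, 0.26 for HRC, 0.25 for RYR2 and 0.23 for CAMK2D). Among 2661 genes with a symbol, a mean of at least 10 TPM and an SD of at least 0.3 on the log2 scale, the profiles nearest to the members' mean over the 9 hearts were those of RPP25L, HUWE1, MTMR1, FH and SMU1, with root mean square differences of 0.08, 0.10, 0.10, 0.13 and 0.13.

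**Figure D4:**
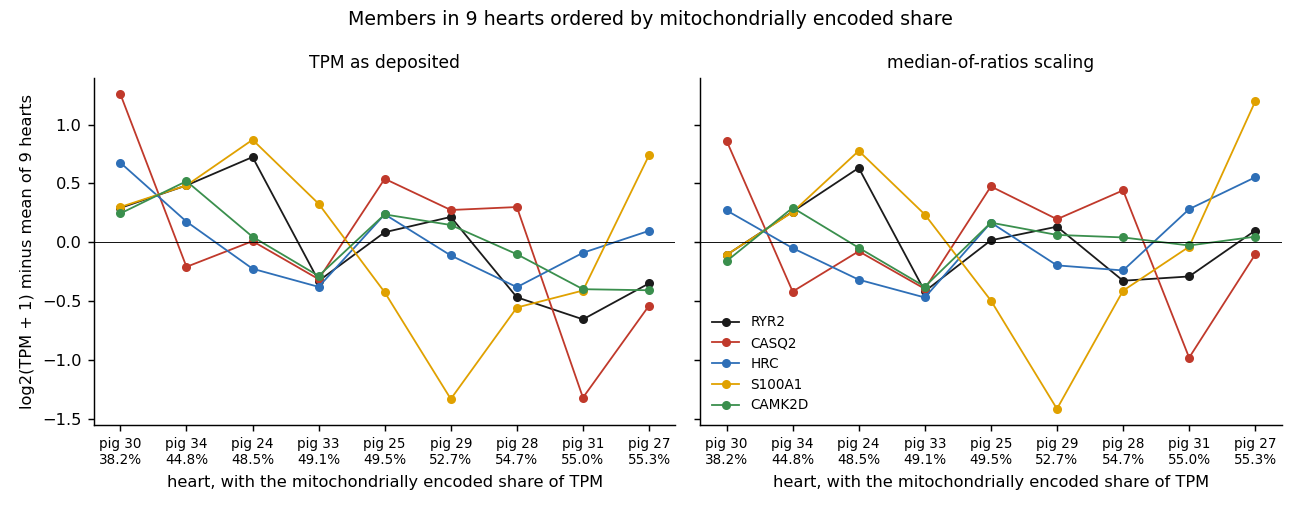
Level of each member in each heart as log2(TPM + 1) minus its mean over 9 hearts, as deposited (left) and after median-of-ratios scaling (right), with hearts ordered by the share of TPM from 13 mitochondrially encoded genes (38.2% in pig 30 to 55.3% in pig 27). S100A1 is lowest in pig 29 and CASQ2 lowest in pig 31 on both scales. Other extremes move from left to right: the highest HRC from pig 30 to pig 27, the highest S100A1 from pig 24 to pig 27 and the lowest RYR2 from pig 31 to pig 33.

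The wider calcium machinery was examined through 6 lists of 105 genes in all, of which 79 had a row and 66 reached at least 1 TPM in at least 3 hearts. No gene of these lists was called in any comparison (limma). At an unadjusted p under 0.05 there were 5 of 66 (7.58%) in the storage comparison, 1 (1.52%) in the NRP comparison and 4 (6.06%) in the HOPE comparison. Over all genes these shares were 4.97%, 7.22% and 6.01%, so the lists stood above, below and near them in turn. The groups did not overlap for 8 (12.1%), 9 (13.6%) and 4 (6.06%) of the 66, close to the 9.82%, 14.7% and 7.48% of all genes. As a background for the lists that follow, 35.9%, 42.2% and 46.2% of all genes tested had a log2 fold change above 0 in the storage, NRP and HOPE comparisons.

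Of the release complex and the dyad, the junction where surface membrane meets the reticulum, 13 of 21 genes had a row and 11 were tested. Their median log2 fold change in the storage, NRP and HOPE comparisons was -0.01, 0.01 and -0.01, with 5, 7 and 5 of the 11 genes above 0. CASQ1, the skeletal muscle calsequestrin, was a minor transcript here, at 3.59, 7.20 and 14.1 TPM in NRP+HOPE 24h (pigs 27, 28 and 30), 4.61, 2.68 and 11.1 TPM in NRP+SCS 2h (pigs 24, 25 and 29) and 3.38, 3.16 and 2.24 TPM in No NRP+HOPE 2h (pigs 31, 33 and 34). The hearts without NRP lay below all NRP+HOPE 24h hearts but overlapped NRP+SCS 2h. CASQ1 differed by 1.09 ± 0.48 in the HOPE comparison (unadjusted p = 0.0387, adjusted p = 0.822, limma), or by 0.66 without pig 30. BIN1, which shapes the T-tubules, was listed at 12.0 to 32.5 TPM after 24 h of HOPE and 9.56 to 11.8 TPM after SCS, with a log2 fold change of 0.79 ± 0.38 (adjusted p = 0.993, limma), or 0.43 without pig 30. TMEM38A, a potassium channel of the reticulum that balances charge during calcium release, stood at 12.1 to 20.1 TPM and 7.15 to 11.1 TPM in the same groups, with 0.65 ± 0.32 (adjusted p = 0.993, limma), or 0.42 without pig 30. Both separated without overlap and neither passed the test. Calreticulin (CALR), a calcium-binding chaperone of the reticulum, was among the abundant transcripts of this list, with a mean over 9 hearts of 282 TPM.

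Of the reuptake regulators, 6 of 10 genes had a row and 5 were tested. Their median log2 fold change was -0.38, -0.30 and -0.65 in the same order of comparisons, with 0, 2 and 2 of the 5 genes above 0. Sarcolipin (SLN), an inhibitor of the reticulum pump that is typical of atrial muscle and stands among the atrial markers too, was low throughout, at 0.323, 0 and 0.401 TPM in NRP+HOPE 24h (pigs 27, 28 and 30), 4.40, 0.963 and 3.07 TPM in NRP+SCS 2h (pigs 24, 25 and 29) and 0.310, 0 and 4.44 TPM in No NRP+HOPE 2h (pigs 31, 33 and 34). The storage comparison was -1.51 ± 0.56 on the log2(TPM + 1) scale (adjusted p = 0.903, limma), and SLN stood at -3.16 with a pseudocount of 0.1 TPM (adjusted p = 0.963, limma). The atrial marker sum, of which SLN is a part, ranged from 56.7 to 86.2 TPM and from 31.2 to 456 TPM in these groups. PPP1R3A, a glycogen-targeting subunit of protein phosphatase 1, was listed at 3.43, 1.69 and 3.07 TPM after 24 h of HOPE and 5.78, 3.74 and 7.57 TPM without NRP, a difference of -0.84 ± 0.33 (adjusted p = 0.769, limma). In both cases the groups did not overlap but the values did not pass the test.

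Of the surface channels and extrusion proteins, 14 of 17 genes had a row and 7 were tested. The medians were -0.12, -0.23 and 0.00 on the log2 scale, with 2, 3 and 4 of the 7 genes above 0. SLC8A2, a sodium-calcium exchanger best known from the brain, was listed at 2.45, 1.20 and 3.06 TPM in NRP+HOPE 24h (pigs 27, 28 and 30), at 5.89, 5.93 and 7.77 TPM in NRP+SCS 2h (pigs 24, 25 and 29) and at 2.87, 3.76 and 5.35 TPM in No NRP+HOPE 2h (pigs 31, 33 and 34). Every NRP+SCS 2h heart lay above every HOPE heart. The log2 fold change in the storage comparison was -1.25 ± 0.34 (95% confidence interval -1.98 to -0.53; unadjusted p = 0.00235, adjusted p = 0.426, limma), and with hearts weighted by their consistency it was -1.51 (adjusted p = 0.0352; over all 16 alternatives 0.0352 to 0.9998). CACNA1C, the pore of the L-type channel that triggers release, had a mean of 19.8 TPM, and FXYD1, phospholemman, which restrains the sodium pump, was the abundant gene of the list at 502 TPM.

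Of the kinases, phosphatases and anchors, 25 of 32 genes had a row and 24 were tested. The medians were 0.01, -0.08 and 0.14 on the log2 scale, with 13, 8 and 16 of the 24 genes above 0. CAMK2A, a form of the kinase typical of brain, was listed at 0.825, 0.384 and 0.987 TPM in NRP+HOPE 24h (pigs 27, 28 and 30), at 3.98, 3.07 and 6.42 TPM in NRP+SCS 2h (pigs 24, 25 and 29) and at 1.95, 3.15 and 8.62 TPM in No NRP+HOPE 2h (pigs 31, 33 and 34). The hearts kept for 24 h were below 1 TPM and below all 6 others. Its log2 fold change was -1.64 ± 0.43 against NRP+SCS 2h (unadjusted p = 0.0019, adjusted p = 0.386, limma) and -1.52 ± 0.43 against No NRP+HOPE 2h (unadjusted p = 0.00324, adjusted p = 0.402, limma). With a pseudocount of 0.1 TPM, CAMK2A stood at -2.48 and -2.30 in these comparisons. Its adjusted p over the 16 alternative settings ranged from 0.0596 to 0.9998 in the former and from 0.1065 to 0.989 in the latter (limma). The member CAMK2D was at 111 to 212 TPM in the same hearts, so CAMK2A made up a small part of the kinase transcripts. PDE4D, a phosphodiesterase that degrades cAMP near the ryanodine receptor, was listed at 26.3, 24.4 and 27.7 TPM in NRP+SCS 2h, 14.02, 15.5 and 19.5 TPM in NRP+HOPE 24h and 16.6, 17.0 and 18.5 TPM in No NRP+HOPE 2h. Both HOPE groups lay below NRP+SCS 2h, by -0.66 ± 0.27 (adjusted p = 0.943, limma) for 24 h and -0.56 ± 0.27 (adjusted p = 0.694, limma) for 2 h. Its relative PDE4B was on the other side, at 51.6, 75.1 and 99.2 TPM after 24 h of HOPE and 41.5, 58.6 and 34.5 TPM after SCS, with 0.72 ± 0.32 (adjusted p = 0.985, limma). ADRB1, the main cardiac adrenergic receptor, was listed at 4.08, 4.58 and 23.6 TPM after 24 h of HOPE and 1.90, 2.73 and 4.35 TPM without NRP (1.20 ± 0.52, adjusted p = 0.822, limma), its high value being that of pig 30, without which the difference was 0.46. PPP2R5A, a targeting subunit of protein phosphatase 2A, was listed at 32.1, 43.2 and 34.3 TPM without NRP and 77.9, 47.8 and 61.6 TPM after SCS (-0.74 ± 0.34, adjusted p = 0.687, limma).

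Of the IP3 receptors and store-operated entry genes, 11 of 13 had a row and 9 were tested, and 0 had an unadjusted p under 0.05 in any comparison. The most abundant was HOMER1, a scaffold for these receptors, with a mean of 26.7 TPM, and the others had means of at most 8.14 TPM (STIM1). The list's median log2 fold change was -0.15, -0.13 and -0.11, with 2, 4 and 3 of the 9 genes above 0. Of the mitochondrial calcium genes, 10 of 12 had a row and 10 were tested, again with 0 at an unadjusted p under 0.05. The list's median log2 fold change was -0.04, -0.27 and 0.27, with 5, 2 and 8 of the 10 genes above 0. Of this list VDAC1, the outer membrane channel, was the most abundant at 165 TPM, while MCU, the pore of the inner membrane uniporter, stood at 4.15 TPM.

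**Figure D5:**
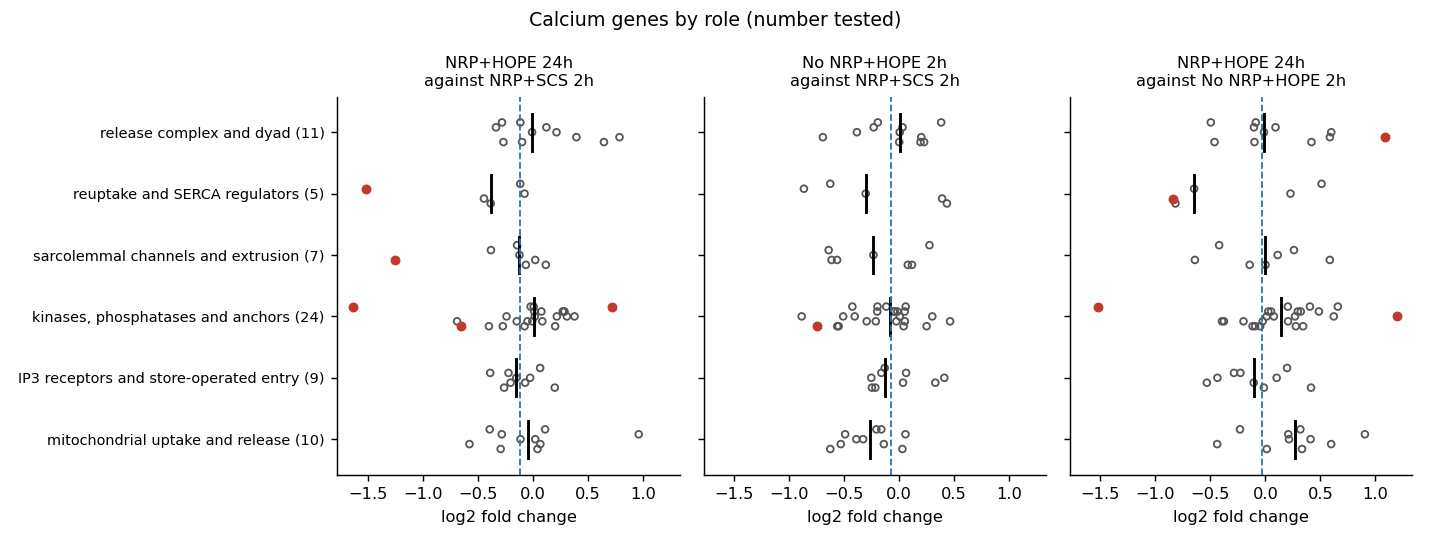
Log2 fold change of the 66 tested calcium genes (points) by list and comparison, with the list's median (black bar), the median of all genes tested (dashed blue line) and genes at an unadjusted p under 0.05 filled red. The red points number 5, 1 and 4 in the 3 comparisons, with CAMK2A farthest to the left at -1.64 in the storage comparison.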

How the data were processed

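Bulk RNA sequencing of 9 porcine hearts was analysed. According to the study's methods and processing notes, poly(A) RNA from samples with an integrity number above 6 was sequenced in paired ends, trimmed with Trimmomatic 0.36, mapped with STAR 2.5.2b and counted with featureCounts (Subread 1.5.2). The genome build and the gene lengths used for TPM are not given in the sources used here. The authors deposited TPM values, and each column sums to 1000000. TPM carries no depth, so neither depth nor counting intervals are given. The precision rests on the spread among 3 hearts per group, each with 1 biopsy. Hearts were grouped by the pig number and treatment in the labels, and 9 further columns that match no labelled sample were not used. The table lists 0 spike-in rows. Another 754 gene identifiers were named through a reference table, which lists CASQ2 under a different identifier than the expression table does.

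The fit used limma 3.58.1 in R 4.3.3 on log2(TPM + 1), with a mean for each of the 3 groups, all 9 hearts and a variance trend, for the 11782 genes that reached 1 TPM in 3 or more hearts. A fold change on this scale understates that of low genes. P-values were two-sided and adjusted by Benjamini-Hochberg over all genes tested. A gene was called where the adjusted p was under 0.05 and the log2 fold change exceeded 1 in size. Ratios were compared by exact permutation in Python 3.11.15 with numpy 2.4.6 and scipy 1.17.1. Scripts were tested on simulated data. The members and lists were chosen with earlier results of these data known. Named were all members, for each calcium list and comparison every called gene and the 3 with the largest absolute change, and the 5 genes nearest in profile to the members' mean. PDE4D for NRP+HOPE 24h, CACNA1C, the abundant genes of each list and the order of levels were chosen after their values were seen, and not every gene the rule names is described. Alternatives were a pseudocount of 0.1 TPM, no filter, median-of-ratios scaling, leaving out mitochondrially encoded genes, only the 6 hearts compared, no variance trend, array weights and leaving out each heart.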

Additional observations from a re-analysis of the deposited data

How the results depend on the processing

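None of the members' 240 log2 fold changes under the alternatives had an adjusted p under 0.05 (limma), and 217 kept their direction. The other 23 turned, from reported values of up to 0.46 in size (S100A1, storage comparison). Many of the 217 could not have turned. Omitting the filter or the variance trend, using just the hearts compared, or leaving out a heart outside the comparison cannot move a fold change. RYR2 in the storage comparison, for example, stayed at -0.52 in each of these settings. The 217 therefore overstates how stable the directions were. Among the 66 calcium genes the storage comparison called 1 gene with array weights, SLC8A2, instead of 0. With median-of-ratios scaling, the HOPE comparison of RYR2 became 0.0375 and of CAMK2D 0.013, and the NRP comparison of HRC 0.0365. With array weights, the storage comparison of CASQ2 became -0.0859 and of HRC -0.19, and the HOPE comparison of S100A1 became -0.46 and of CAMK2D 0.0359. Without a change of direction, array weights gave 0.0733 for S100A1 and 0.43 for TMEM38A in the storage comparison, -0.26 for HRC and -0.32 for CAMK2D in the NRP comparison, and 0.0738 for HRC, -0.13 for RYR2 and 0.74 for ADRB1 in the HOPE comparison. Median-of-ratios scaling gave 0.20 for CASQ2, 0.31 for HRC and -0.0847 for CAMK2D in the storage comparison, -0.0977 for CAMK2D in the NRP comparison and 0.0746 for S100A1 in the HOPE comparison, and SLN in the storage comparison was -2.06 without mitochondrially encoded genes. The cause was not tested. Leaving out each heart gave, for the storage comparison, -0.39 (without pig 30) to 0.50 (without pig 27) for CASQ2, -0.11 (pig 30) to 0.42 (pig 28) for HRC, -0.0612 (pig 29) to 1.04 (pig 24) for S100A1, -0.0378 (pig 30) to 0.87 (pig 29) for CASQ1, -0.38 (pig 30) to 0.0205 (pig 28) for CACNB2 and -0.60 (pig 29) to 0.14 (pig 24) for TRPC6. For the NRP comparison it gave -0.20 (pig 34) to 0.0764 (pig 33) for HRC, -0.0893 (pig 29) to 1.01 (pig 24) for S100A1, -0.0071 (pig 25) to 0.20 (pig 29) for TRDN, -0.0251 (pig 34) to 0.74 (pig 33) for TRPC1 and -0.26 (pig 34) to 0.93 (pig 31) for ITPR1. For the HOPE comparison it gave -0.25 (pig 31) to 0.32 (pig 34) for RYR2, -0.0444 (pig 30) to 0.48 (pig 28) for HRC, -0.26 (pig 27) to 0.39 (pig 28) for S100A1, -0.20 (pig 31) to 0.25 (pig 34) for CAMK2D, -1.12 (pig 33) to 0.10 (pig 34) for SLN, -0.76 (pig 33) to 0.0011 (pig 34) for TRPC1 and -1.13 (pig 31) to 0.0533 (pig 34) for ITPR1.

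CASQ2 had an unadjusted p under 0.05 in 7 of 16 alternatives of the NRP comparison (0.0156 to 0.245) and in 7 of 16 of the HOPE comparison (0.00442 to 0.232), and an adjusted p under 0.05 in 0 of them (limma). RYR2 and S100A1 each had an unadjusted p under 0.05 in 1 of 16 alternatives of the storage comparison (0.0302 and 0.0279, limma). Each also did in 1 of 16 of the NRP comparison (0.0320 and 0.0317, limma). HRC and CAMK2D did in 0. Calls over all genes, the background of these counts, were 3, 6 and 6 in the storage, NRP and HOPE comparisons, 60, 94 and 14 with array weights, 4, 19 and 3 with median-of-ratios scaling, 2, 20 and 2 without mitochondrially encoded genes, 13, 3 and 7 with only the 6 hearts compared, 0, 6 and 3 with a pseudocount of 0.1 TPM, 1, 1 and 4 without a filter and 3, 6 and 4 without the variance trend, and ranged over 0 to 12, 1 to 13 and 0 to 16 when each heart was left out. Ratios of ATP2A2 to PLN and of SLC8A1 to ATP2A2 had been planned and were not run. No paired analysis was possible because the pigs differ between groups and share no numbers. With 3 hearts per group, the 95% confidence intervals of all 5 members in the fit reported above included 0 in the storage and NRP comparisons.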

Other observations

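SMDT1, which encodes a small subunit that the mitochondrial calcium uniporter needs to open, was present at separate levels that did not follow the groups. It was listed at 0.134 to 0.879 TPM in 5 hearts and at 10.1 to 13.9 TPM in the other 4. The hearts at the higher level were pigs 27 and 28 of NRP+HOPE 24h (11.7 and 10.1 TPM), pig 29 of NRP+SCS 2h (13.3 TPM) and pig 31 of No NRP+HOPE 2h (13.9 TPM). Pig 30 (0.610 TPM), pigs 24 and 25 (0.134 and 0.879 TPM) and pigs 33 and 34 (0.329 and 0.737 TPM) were at the lower one, so each group held both kinds. The 4 hearts at the higher level were also the 4 with the largest mitochondrially encoded share of TPM, from 52.7% to 55.3%, whereas the other 5 ranged from 38.2% to 49.5%. The part of that share in the SMDT1 values was not tested. The group differences of SMDT1 were accordingly wide, with a 95% confidence interval of -1.27 to 3.19 around a log2 fold change of 0.96 in the storage comparison, which was 0.23 without pig 24, 2.06 without pig 29, 1.598 with a pseudocount of 0.1 TPM and 1.78 with array weights.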
